A study of Drosophila melanogaster with 10 samples.

Results

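A first and a second set of arrays, labelled as fly head at shared times, differed in the tissues and gene classes of their transcripts. RNA labelled as from heads of Drosophila melanogaster of the yw strain was measured on 10 Affymetrix arrays. They covered 6 times of day, given as zeitgeber time (ZT), with total RNA from Trizol and a biotin label. All arrays are titled Control and share the yw strain, and no treatment is named. No source used here gives the sex, age or light schedule of the flies. The first set held 4 of the 10 arrays, namely ZT3 replicates 1 and 2 and ZT15 replicates 2 and 3. The second set held the other 6 arrays, namely ZT3 replicate 3, ZT15 replicate 1 and the single arrays of ZT7, ZT11, ZT19 and ZT23. The sets were selected on the measured levels of these same arrays, by clustering, so every difference between them is a description, with no test. Nothing in the labels records the sets, and nothing says that replicates came from separate cultures.

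A fly head holds the compound eyes, the brain and its glia, the antennae and other sense organs, fat body, blood cells and muscle. The antennae detect odours through olfactory neurons whose ciliated tips sit in a fluid rich in odorant-binding proteins. Testis, accessory glands, the ejaculatory duct and bulb, ovaries, oenocytes (cells under the abdominal cuticle that make surface hydrocarbons), Malpighian tubules and flight muscle lie outside the head. In RNA of whole tissue, fewer cells of a type and less RNA per cell cannot be told apart.

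Levels are natural logs of the deposited intensities. These are likely equal to log2 values from GCRMA, a method that corrects the background of short probes by their sequence and normalizes arrays. If the deposited values were untransformed intensities instead, log2 differences would be 1.44 times those given. Values between about 2 and 4 lie near the floor of the arrays, so the size of a difference against such a value is uncertain. A difference is the mean of the 4 arrays of the first set minus the mean of the 2 arrays of the second set at ZT3 and ZT15. A gene is called higher or lower when that difference exceeds 1 in size and the arrays of the sets did not overlap. Of 18769 probe sets, 12991 with a mean level of at least 4 over all 10 arrays entered. The probe set just inside that limit averaged 4.00033 and the one just outside 3.99987. A gene near the floor in one set entered only through its level in the other, so counts over the genes that entered lend no support of their own.

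Arrays of the same set correlated at 0.968 to 0.992 over these probe sets, and arrays of different sets at 0.72 to 0.83. Of the probe sets, 1219 (9.38%) were higher and 2125 (16.4%) lower in the first set at ZT3 and ZT15. Of those, 1047 and 2016 also met the same rule over all 10 arrays. Quantile normalization gave 2173 higher and 1905 lower, and log2(value + 1) gave 2427 higher and 2477 lower, so the split between directions depends on the scale. Over 10165 genes, each read from whichever of its probe sets had the highest mean, 1008 (9.92%) were higher and 1819 (17.9%) lower. The median difference over all genes was 0.19, and it was 0.174 over all probe sets. Differences over 4 in size went mostly one way, with 34 genes higher and 620 lower. Over all 10 arrays, 945 genes (9.3%) were higher and 1765 (17.4%) lower.

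The label of fly head was checked against eye and brain genes, which were well above the floor on every array of both sets. Arr2, an arrestin that shuts off rhodopsin in photoreceptors, read 15.39, 15.48, 15.50 and 15.46 on the first set, against 15.20, 15.34 and 15.37 (lowest, median and highest) on the second set. The pan-neuronal RNA-binding gene elav read 11.04, 10.93, 11.001 and 11.15 on the first set, against 11.07, 11.27 and 11.64 on the second set. The glial transcription factor repo read 11.08, 11.03, 11.13 and 11.09 on the first set, against 10.27, 10.59 and 10.84 on the second set. The groups overlapped for elav, while repo and Arr2 were slightly higher throughout the first set by less than 1. Of 26 listed photoreceptor genes, 17 entered, and 15 of them met neither call, with a median difference of 0.19. Of 17 neuronal genes, 13 met neither call and 4 (23.5%) were lower, near the 17.9% of all genes called lower, with a median of -0.34. This check used head genes alone. On the second set, list medians were 13.63 to 14.55 for the ejaculatory duct and bulb and 10.20 to 11.52 for testis. On the first set they were 3.60 to 4.69 and 3.78 to 6.12. The second-set values are not covered by a label of head alone, and their cause was not tested.

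By the count of calls alone, the neuronal list was not set apart from all genes. Its array medians were 10.8 to 11.3 on the first set and 11.4 to 11.8 on the second, with no overlap. Its median difference was -0.34, beside 0.19 over all genes. A difference below 0 was seen for 10 of the 17 neuronal genes, and for 3987 of all 10165 genes. The lower neuronal genes included para, the voltage-gated sodium channel, with a difference of -1.57, and nrv3, a subunit of the sodium pump, with -1.18. The amyloid precursor homologue Appl had a difference of -1.09. The active zone gene brp had -1.40 in the probe set used, but its 4 probe sets ran between -2.11 and 0.19, so its direction depends on the probes. The nicotinic acetylcholine receptor subunit nAChRalpha5 was lower, with a difference of -1.79. Of 9 such subunits 2 (22.2%) were lower, near the 17.9% of all genes, and 7 met neither call. Among eye genes rdgA, a diacylglycerol kinase of phototransduction, was lower, with a difference of -1.41, and ninaB, an enzyme of visual pigment synthesis, was higher by 1.39. The 4 probe sets of rdgA ran between -1.41 and -0.48. Both calls of rdgA and ninaB held over all 10 arrays.

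Antennal and olfactory genes led the named genes in the upward direction. The odorant-binding protein gene Obp19a read 13.03, 12.95, 13.001 and 13.07 on the first set, against 2.26, 2.92 and 6.01 on the second set. Os-C, an antennal gene, read 13.47, 13.50, 13.43 and 13.43 on the first set, against 3.20, 4.96 and 6.94 on the second set. The lowest array of the first set thus lay above the highest of the second by over 6 for both genes. The antennal protein gene a5 read 11.07, 11.23, 11.38 and 11.14 on the first set, against 3.10, 3.54 and 4.14 on the second set. The gene lush, whose product is needed to detect the male pheromone vaccenyl acetate, read 11.47, 11.48, 11.20 and 11.27 on the first set, against 4.08, 4.51 and 5.13 on the second set. Their differences were 10.50 for Obp19a, 9.52 for Os-C, 8.10 for a5 and 6.85 for lush.

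The receptors of olfactory neurons followed the same direction. Orco, the coreceptor that odorant receptors need to reach the cilium, read 9.86, 9.98, 10.02 and 9.93 on the first set, against 4.53, 4.96 and 5.37 on the second set. The ionotropic receptor Ir76a, of the antennal family that detects amines and acids, read 9.11, 9.16, 9.10 and 9.11 on the first set, against 5.66, 5.98 and 6.43 on the second set. No array of one set reached the range of the other for Orco or Ir76a. Of 57 listed odorant receptors, 6 entered, and 4 (66.7%) were higher and none lower, beside 9.92% and 17.9% of all genes. Of 53 ionotropic receptors, 8 entered, and 4 (50%) were higher, namely Ir76a, Ir25a, Ir76b and Ir8a, and none lower. The last 3 are coreceptors, with differences of 1.95 for Ir25a, 1.90 for Ir76b and 1.36 for Ir8a. Gustatory receptors were mostly under the limit, since 2 of 56 entered and neither met a call.

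Other genes tied to the antenna were chosen after their values were seen, so their direction lends no support of its own. Amt, an ammonium transporter of antennal support cells, read 7.70, 7.98, 7.83 and 7.64 on the first set, against 2.11, 2.41 and 2.68 on the second set. The transcription factor ss, which sets antennal identity during development, had a difference of 3.19, and the antennal dehydrogenase Antdh had 4.002. Snmp1, a membrane protein for pheromone detection, had a difference of 1.85. A list of 17 olfactory organ genes, put together after these values were seen, was higher for all 17, with a median difference of 6.80. That list cannot count as evidence of its own direction.

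Within the family of odorant-binding proteins, small secreted carriers of hydrophobic ligands, the sets differed in opposite directions. Of 48 listed genes 32 entered, and 13 (40.6%) were higher and 6 (18.8%) lower in the first set. All genes had 9.92% higher and 17.9% lower, so the lower share was near that of all genes. The higher ones were led by Obp19a, Obp83b, Obp84a and Obp28a, and the lower ones by Obp51a, Obp22a, Obp56i and Obp56f. Obp51a, known from seminal fluid, read 3.52, 3.54, 3.61 and 4.32 on the first set, against 11.32, 12.19 and 12.72 on the second set. Obp22a, also a seminal protein, read 3.68, 3.93, 3.87 and 3.38 on the first set, against 8.40, 9.11 and 9.77 on the second set. Between these ends, Obp18a, Obp49a and Obp56h overlapped between the sets. Obp56g had a difference of -1.21 and Obp56a of -2.22, both above the floor on all arrays.

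**Figure D1:**
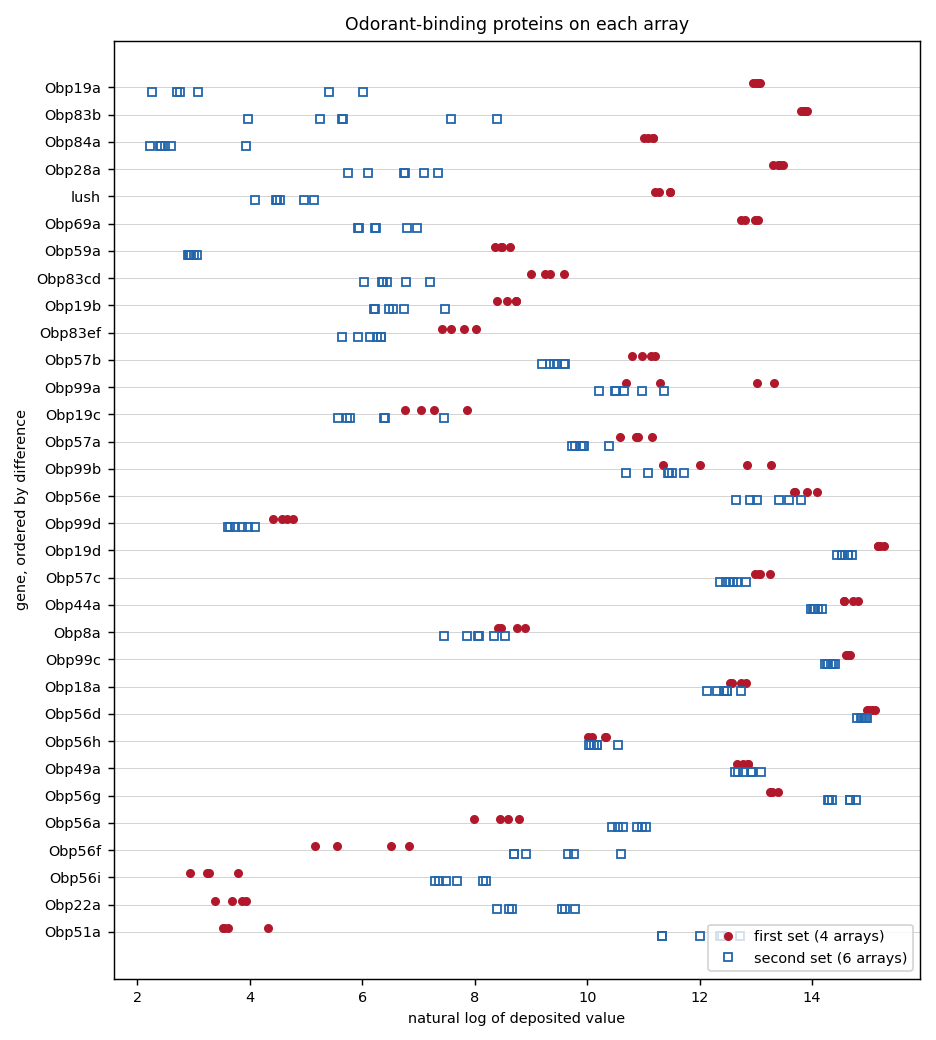
Level of 32 odorant-binding protein genes (rows, ordered by difference) as the natural log of the deposited value, with filled circles for the 4 arrays of the first set and open squares for the 6 arrays of the second set. Obp19a tops the rows with the first set near 13 and the second set at 6.01 or less, and Obp51a closes them with the first set at 4.32 or less and the second set above 11.

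Lists of ciliary genes differed in their counts. The BBSome and intraflagellar transport carry cargo along the cilia of sensory neurons, while fly sperm assemble their tails without such transport. Of 22 listed genes of this machinery 13 entered, and 8 (61.5%) were higher and 1 (7.69%) lower, beside 9.92% and 17.9% of all genes. That list was made after the values were seen. BBS9 read 8.75, 8.76, 8.28 and 8.01 on the first set, against 4.94, 5.09 and 5.41 on the second set. Arl6, a small GTPase that recruits the BBSome, read 7.12, 7.52, 7.48 and 7.56 on the first set, against 3.83, 4.02 and 4.37 on the second set. The exception was nompB, with a difference of -1.08. Of 8 genes for axonemal dyneins and related proteins, 2 (25%) were lower and 6 met neither call. That share was not far from the 17.9% of all genes called lower. The median of the 8 genes, -0.47, became 0.10 after quantile normalization. A further list, made after the values were seen, held 4 factors that assemble the dynein motors of beating axonemes. Dnaaf6 read 5.75, 5.05, 6.52 and 5.31 on the first set, against 9.15, 9.73 and 10.33 on the second set, and 3 of the 4 were lower. Tubulin tyrosine ligase-like genes, which modify axonemal tubulin, had 6 of 11 lower and 1 higher, with a difference of -5.04 for TTLL4B. This family, too, was chosen after its values were seen.

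**Figure D2:**
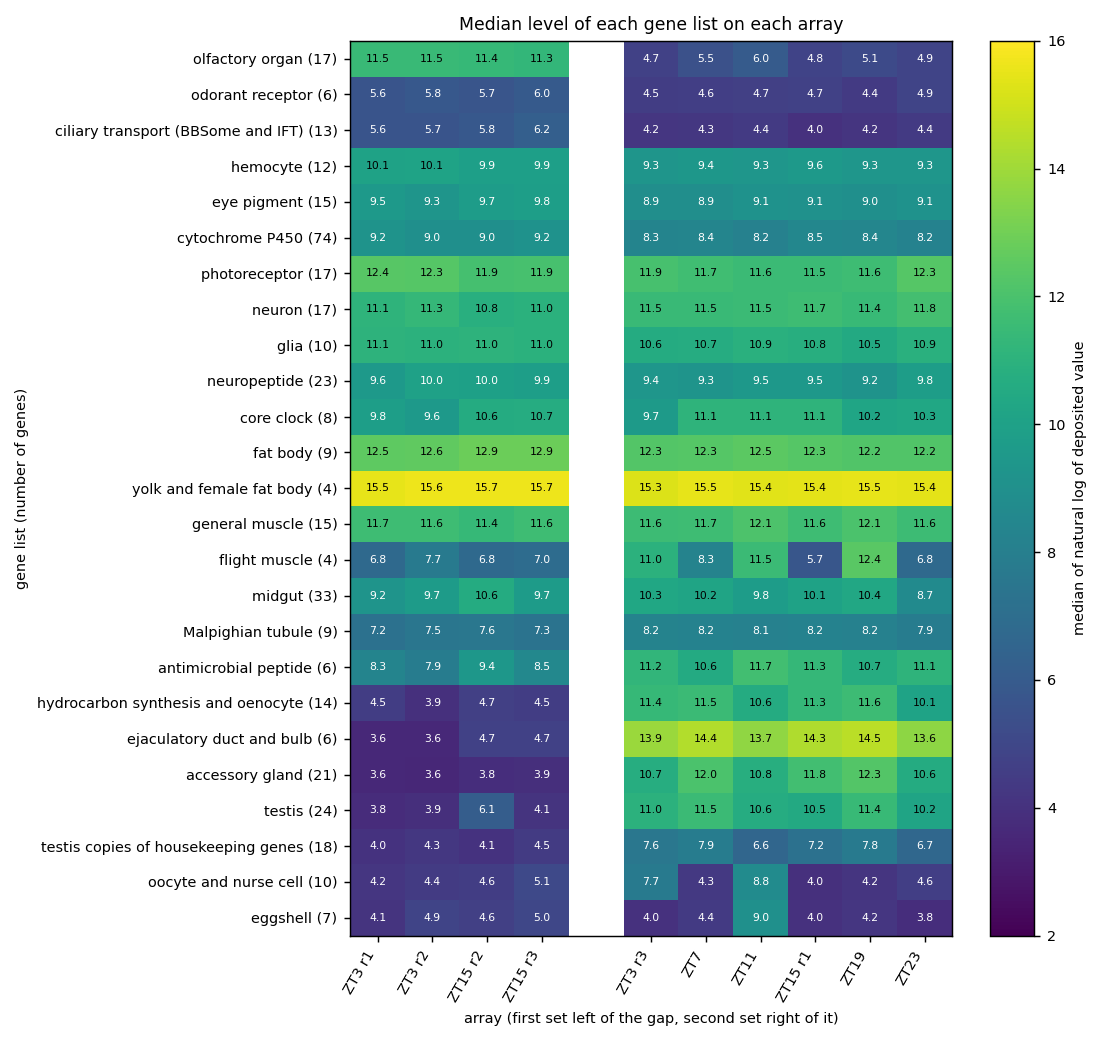
Median level of 25 gene lists (rows, with the number of genes) on each array (columns), as the natural log of the deposited value, with the 4 arrays of the first set left of the gap and the 6 of the second set right of it. Olfactory organ genes sit between 11.3 and 11.5 on the first set and at 6.0 or less on the second, ejaculatory duct and bulb genes at 4.7 or less on the first and above 13 on the second, and flight muscle, oocyte and eggshell genes vary within the second set.

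Several genes of hormones and hormone synthesis were higher in the first set. Akh, the adipokinetic hormone made in the corpora cardiaca behind the brain, read 9.50, 10.91, 9.87 and 9.26 on the first set, against 4.19, 5.47 and 7.16 on the second set. The gene jhamt, which carries out a late step of juvenile hormone synthesis in the corpora allata, read 9.59, 10.06, 9.28 and 9.22 on the first set, against 4.77, 5.38 and 5.48 on the second set. Both glands lie at the border of head and thorax, and neither gene overlapped between the sets. The eclosion hormone gene Eh differed by 3.57. Both jhamt and Eh were chosen after their values were seen. Of 23 neuropeptide genes that entered, 5 (21.7%) were higher, none lower and 18 met neither call, beside 9.92% of all genes higher. Besides Akh, those named by size were Nplp4 with 1.70, Nplp3 with 1.22 and SIFa, a brain peptide, with 1.09. LysP, a lysozyme of the salivary gland that is counted in the midgut list, read 12.47, 12.29, 11.44 and 11.70 on the first set, against 6.09, 6.80 and 8.58 on the second set.

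Juvenile hormone binding proteins, a family of secreted carriers, went both ways. Of 11 that entered, 4 (36.4%) were higher and 2 (18.2%) lower, beside 9.92% and 17.9% of all genes, so the lower share was near that of all genes. Jhbp11 read 10.28, 10.50, 10.28 and 10.40 on the first set, against 5.49, 6.45 and 7.01 on the second set. Jhbp5 read 6.69, 6.47, 6.74 and 6.49 on the first set, against 11.36, 12.12 and 12.67 on the second set. The esterase gene Jhedup, a relative of juvenile hormone esterase, was higher by 7.59.

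Most fat body genes and 7 of 12 hemocyte genes met neither call. Lsp2, a storage protein of fat body, read 12.21, 12.21, 13.42 and 13.50 on the first set, against 8.39, 9.36 and 10.57 on the second set. It was among 2 (22.2%) higher of 9 fat body genes, beside 9.92% of all genes. Within the first set Lsp2 was higher at ZT15 than at ZT3 on both arrays. Of 12 hemocyte genes 5 (41.7%) were higher and none lower, beside 9.92% and 17.9% of all genes. The median difference of the hemocyte genes was 0.75, beside 0.19 over all genes. Their array medians were 9.89 to 10.14 on the first set and 9.30 to 9.58 on the second, with no overlap. The prophenoloxidase PPO1, which crystal cells store for melanin formation, had a difference of 1.99 and PPO2 had 1.69. The phagocytic receptor NimC1 differed by 1.63 and the surface glycoprotein He by 2.28. The yolk protein Yp1, made by female fat body and by ovarian follicle cells, read 15.76, 15.88, 15.87 and 15.96 on the first set, against 15.50, 15.72 and 15.78 on the second set. None of the 4 genes of that female list met a call, with 0.35 for Yp2, 0.15 for Yp3 and 0.83 for fit, a female fat body gene of the head.

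Of 10 anterior patterning genes, 3 (30%) were higher in the first set and none lower, beside 9.92% and 17.9% of all genes. Scr, the Hox gene of the labial segment, read 7.69, 7.74, 7.63 and 7.67 on the first set, against 5.34, 5.58 and 6.46 on the second set. Dfd, the Hox gene of the maxillary segment, differed by 1.27 and ems, a head gap gene, by 1.30. These 3 were the ones called. The thoracic Hox gene Antp had 6.22, 6.28, 6.29 and 6.00 on the first set, against 6.28, 6.62 and 6.89 on the second set, and its difference of -0.21 turned to 0.43 after quantile normalization. Among regulators of sex and dosage, dsx, which directs sexual differentiation, differed by 1.58, and msl-3, a subunit of the male X chromosome complex, by 1.16. Of 9 such genes 2 (22.2%) were higher and none lower. The 2 probe sets of dsx gave 0.153 and 1.58 and those of msl-3 gave 0.398 and 1.16, so both calls depend on the probe set.

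Of 74 cytochrome P450 genes that entered, enzymes of detoxification and hormone turnover, 29 (39.2%) were higher, 6 lower and 39 neither. The share of all genes called higher was 9.92%. The P450 genes had a median difference of 0.77, beside 0.19 over all genes. Cyp6a17 read 11.11, 10.97, 10.59 and 10.50 on the first set, against 2.57, 2.68 and 4.35 on the second set. Cyp6a20, linked to aggression in male flies, read 11.87, 11.94, 11.56 and 11.68 on the first set, against 6.83, 7.06 and 7.36 on the second set. Members of one subfamily did not share a direction. Cyp4p1 was higher by 1.83, while Cyp4p2 was lower, with a difference of -2.86, and Cyp4p3 too, with -1.66. Cyp6g1, known for DDT resistance, differed by 1.18, and Cyp6a2 by -0.28 with overlapping arrays. Among 31 glutathione S-transferases 5 (16.1%) were higher, led by GstE4 with 7.42, and 3 (9.68%) lower, with a median of 0.16, about that of all genes. Among 26 UDP-glycosyltransferases 7 (26.9%) were higher, led by Ugt35C1 with 3.57, and 4 (15.4%) lower, with a median of 0.28. All genes had 9.92% higher and 17.9% lower.

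**Figure D3:**
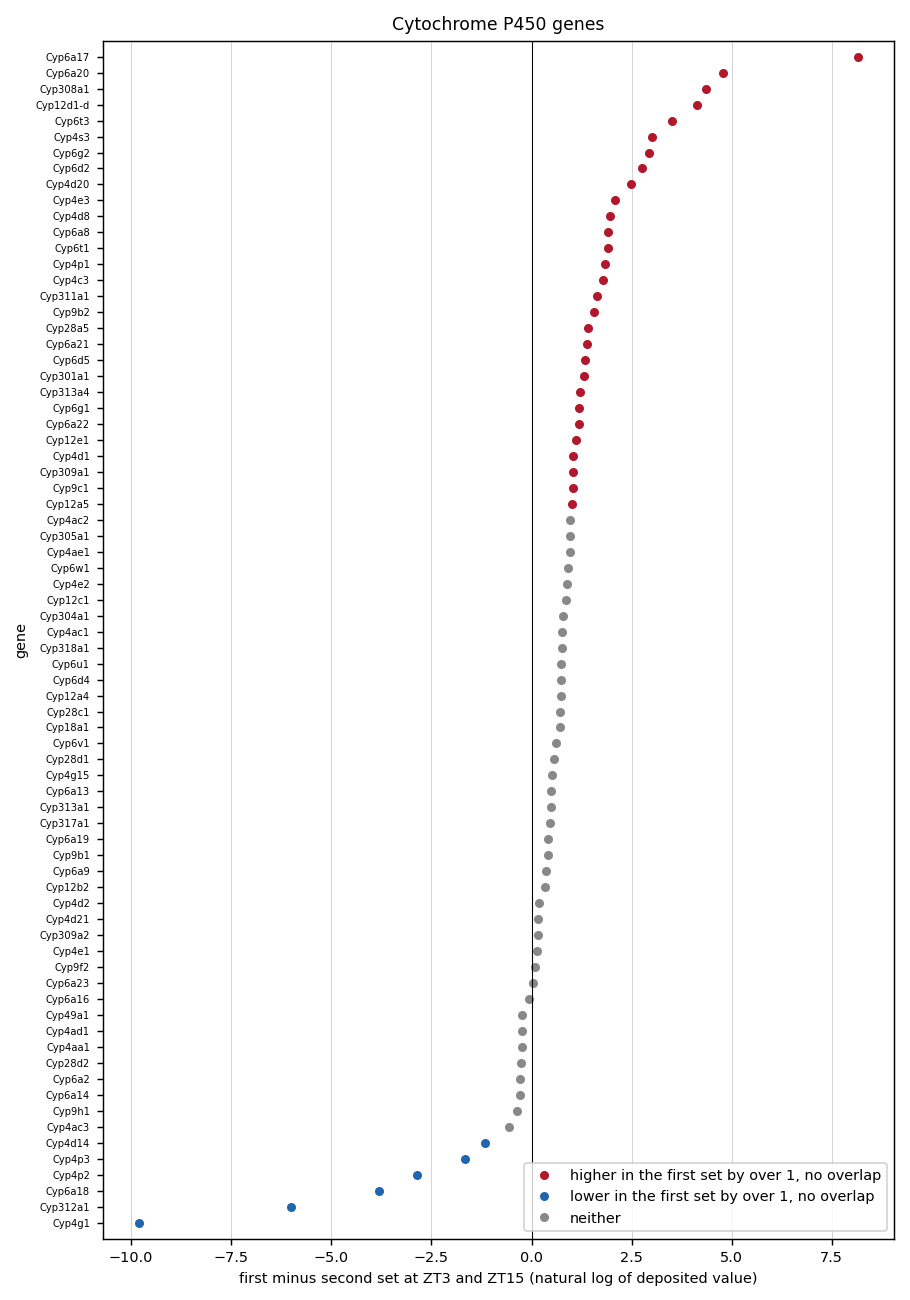
Difference between the sets (first minus second at ZT3 and ZT15, natural log of the deposited value, horizontal axis) for 74 P450 genes (rows, in order of size), with red for higher, blue for lower and grey for neither call. Cyp6a17 stands at 8.17 and Cyp4g1 at -9.81, and most genes lie right of 0.

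Hydrocarbon synthesis genes were among the lowest named genes outside the male organs. Cyp4g1, the oenocyte enzyme of the last step of cuticular hydrocarbon synthesis, read 6.79, 6.22, 4.84 and 4.31 on the first set, against 15.02, 15.36 and 15.57 on the second set. The fatty acyl elongase CG16904 read 3.26, 3.89, 2.14 and 2.83 on the first set, against 12.32, 13.25 and 13.63 on the second set. FASN3, a fatty acid synthase of oenocytes, read 4.24, 3.57, 3.93 and 4.93 on the first set, against 9.86, 10.80 and 11.55 on the second set. Cyp4g1 was thus among the brightest probe sets of the second set and well below that on every array of the first set. FASN2 differed by -6.24 and the predicted fatty acyl reductase CG17560 by -8.17. Of 14 such genes that entered, from a list made after the values were seen, 10 were lower and none higher.

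Lipid enzymes used by many tissues are represented by a pair of genes chosen after their values were seen. FASN1, the general fatty acid synthase, read 13.76, 14.01, 14.10 and 14.11 on the first set, against 14.14, 14.16 and 14.30 on the second set. The desaturase Desat1 read 14.45, 14.12, 14.38 and 14.37 on the first set, against 14.12, 14.23 and 14.36 on the second set. Differences were -0.15 for FASN1 and 0.13 for Desat1, both short of a call.

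Genes of the ejaculatory duct and bulb included those with the widest differences. EbpII, a protein of the ejaculatory bulb, read 2.83, 2.66, 2.59 and 2.92 on the first set, against 14.46, 14.79 and 15.04 on the second set. Ebp, which forms the mating plug, read 3.62, 3.25, 3.60 and 4.71 on the first set, against 14.57, 14.97 and 15.19 on the second set. The difference of EbpII, -12.06, was the widest among all named genes. Dup99B, a peptide of the ejaculatory duct that binds the sex peptide receptor, differed by -10.08, and Anp, the male antibacterial peptide andropin, by -8.75. Of 6 duct and bulb genes 4 were lower and none higher, with a median of -9.42. Testis genes were lower for 22 of 24 and accessory gland genes for 20 of 21.

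Among 23 serpins, inhibitors of serine proteases, 8 (34.8%) were lower, 1 higher and 14 neither, beside 17.9% of all genes lower. Spn28F read 3.13, 2.49, 2.46 and 2.58 on the first set, against 11.07, 11.66 and 12.58 on the second set. Spn38F read 2.81, 3.01, 2.44 and 3.69 on the first set, against 10.76, 11.44 and 12.28 on the second set. The median of the serpins was -0.20 and turned to 0.09 after quantile normalization. Mst57Da, a small male protein, read 4.03, 4.38, 3.23 and 3.61 on the first set, against 13.56, 14.27 and 14.71 on the second set. CG17097 differed by -10.10, Sgp by -9.53 and Mur18B by -9.25.

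Most genes for shared cell machinery met no call. Of 69 mitochondrial ribosomal proteins none met a call at ZT3 and ZT15, with a median of 0.47, and 65 had a difference above 0. The 26 proteasome subunits also met no call, with a median of -0.32. Of 59 genes of oxidative phosphorylation 9 (15.3%) were lower and 50 met neither call, and of 40 translation initiation factors 9 (22.5%) were lower and 31 neither. Both shares were near the 17.9% of all genes called lower. Of 32 cytoplasmic ribosomal proteins 3 (9.38%) were lower, under the 17.9% of all genes, namely RpS19b, RpS5b and RpS10a. The median of 18 testis copies of housekeeping genes was -3.16, with 17 lower, against 0.09 over the oxidative phosphorylation list.

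The proton pump V-ATPase, which acidifies vesicles and drives secretion across tubules, had called and uncalled genes within one complex. Of 31 subunit genes 11 (35.5%) were lower, 1 higher and 19 neither, beside 17.9% of all genes lower and 9.92% higher. Vha68-3, a copy of the catalytic subunit, read 2.72, 2.76, 2.71 and 2.78 on the first set, against 8.24, 8.79 and 9.33 on the second set. Vha36-1 read 12.93, 12.97, 12.97 and 12.80 on the first set, against 12.55, 12.62 and 12.67 on the second set, while its copy Vha36-2 read 3.14, 3.86, 3.80 and 3.85 on the first set, against 7.44, 7.75 and 8.37 on the second set. The 19 genes with neither call had differences between -0.48 and 0.98. None of the 11 lower ones averaged above 7.49 on the first set.

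**Figure D4:**
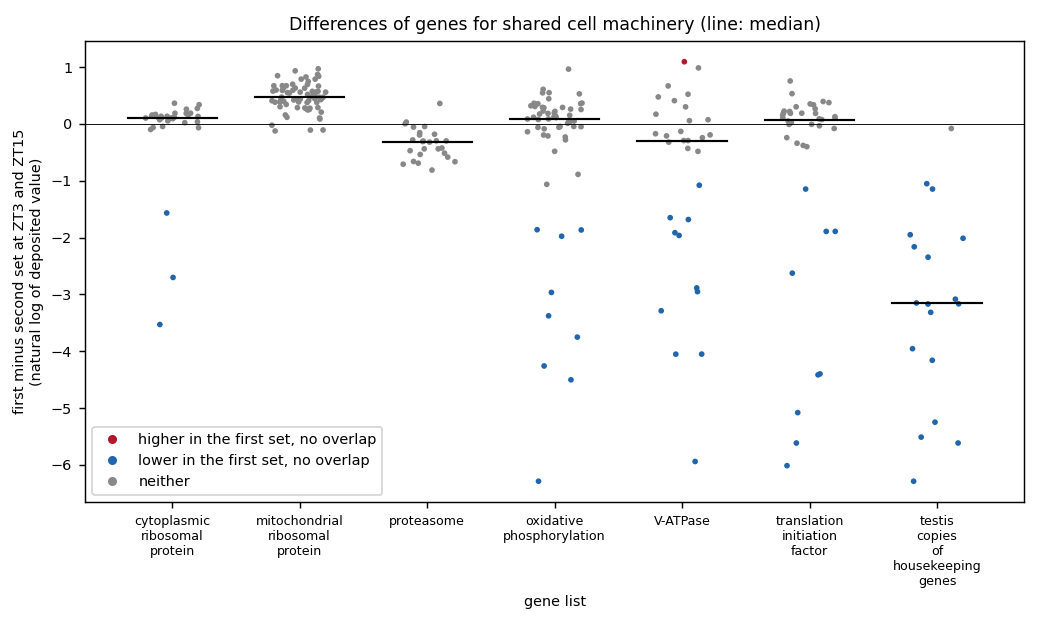
Difference between the sets (first minus second at ZT3 and ZT15, natural log of the deposited value, vertical axis) for genes of 7 lists of shared machinery, with 1 point per gene, blue for lower, red for higher and grey for neither, and a line at each median. Most points lie near 0 with tails of lower genes down to -6.29 (COX4L), while the list of testis copies has its median at -3.16.

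Of 33 midgut genes 11 (33.3%) were lower and 3 (9.09%) higher at ZT3 and ZT15. Over all 10 arrays 4 (12.1%) were lower and 3 higher, beside 17.4% and 9.3% of all genes. By these counts over all 10 arrays the midgut list was not set apart from all genes. Its median difference at ZT3 and ZT15 was -0.66, beside 0.19 over all genes. A difference below 0 was seen for 25 of the 33, and for 3987 of all 10165 genes. ZT23 held the lowest midgut median of the second set, at 8.72. The maltase Mal-A4 read 5.75, 7.62, 7.41 and 4.97 on the first set, against 8.98, 9.74 and 10.37 on the second set. The protease Jon65Ai read 6.30, 7.94, 10.70 and 8.70 on the first set, against 7.72, 9.30 and 9.74 on the second set, so the sets overlapped. Of 10 genes of the alpha-glucosidase family, chosen after their values were seen, 7 were lower and 1 higher. ZnT35C, a zinc transporter of Malpighian tubules, read 5.43, 5.01, 5.23 and 5.79 on the first set, against 7.55, 8.71 and 8.95 on the second set. Of 9 tubule genes 3 (33.3%) were lower and 1 (11.1%), the kinin receptor Lkr, was higher, beside 17.9% and 9.92% of all genes. The sodium-dependent phosphate transporter NaPi-T lay near the floor.

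Genes of the drosomycin family went both ways, while no gene of the antimicrobial peptide list was higher. Drs, the antifungal peptide drosomycin made by fat body, read 11.86, 10.12, 10.65 and 10.71 on the first set, against 13.88, 14.38 and 14.82 on the second set. Drsl5, a drosomycin-like gene, read 14.48, 14.39, 14.29 and 14.43 on the first set, against 10.24, 10.48 and 10.77 on the second set. Drsl4 differed by 3.58. Of 6 drosomycin family genes that entered, 3 were higher and 1 lower, from a list made after the values were seen. Over all 10 arrays 2 were higher and 1 lower. All 6 antimicrobial peptide genes that entered had a difference below 0, with a median of -1.61. Of these 3 (50%) were lower, beside 17.9% of all genes, and none higher. DptB was among the lower genes, but it read 12.21 on ZT15 replicate 2 of the first set and so overlapped with the second set over all 10 arrays.

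Some tissues varied within the second set more than between the sets. Act88F, the actin of indirect flight muscle, read 8.17, 8.34, 7.95 and 8.28 on the first set. On the second set it read 11.98 for ZT3 replicate 3, 8.50 for ZT7, 12.10 for ZT11, 5.96 for ZT15 replicate 1, 13.40 for ZT19 and 6.66 for ZT23. The flightin gene fln, a myosin rod protein of that muscle, ranged over 6.99 on the second set and was highest on ZT19 and lowest on ZT15 replicate 1, as was TpnC4 with a range of 6.12. Because the first set lay between these ends for Act88F, no set difference can be read from it. The 4 flight muscle genes had a median difference of -1.71, of which TpnC4 and Act79B, with -3.04 and -1.31, were called.

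Egg genes were high on 1 or 2 arrays of the second set. The vitelline membrane gene Vm26Aa read 4.63, 4.99, 4.74 and 5.56 on the first set, against 4.005, 4.71 and 11.44 on the second set, where ZT11 held the highest value. The chorion gene Cp36 likewise reached 10.60 on ZT11, and Vm34Ca 10.66. Another chorion gene, Cp15, was highest on ZT3 replicate 3, at 12.29, and ranged over 8.73 on the second set. The germ line gene osk reached 8.83 on ZT11 and 6.74 on ZT3 replicate 3, against 3.21 as the median of the second set. Oocyte and nurse cell genes had a median difference of -0.97, which became 0.34 without ZT3 replicate 3. The 2 genes of that list that were called lower, exu and stau, behaved otherwise. The gene exu, which localizes maternal mRNA and also acts in spermatogenesis, read 4.02, 4.47, 5.82 and 5.28 on the first set, against 11.04, 11.63 and 12.18 on the second set. For stau the values were 9.44, 9.61, 9.40 and 9.08 on the first set, against 9.92, 10.30 and 11.12 on the second set. Fad2, the desaturase for female dienes, was also highest on ZT11 within the second set, at 10.23, and its lowest value there was 2.93.

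**Figure D5:**
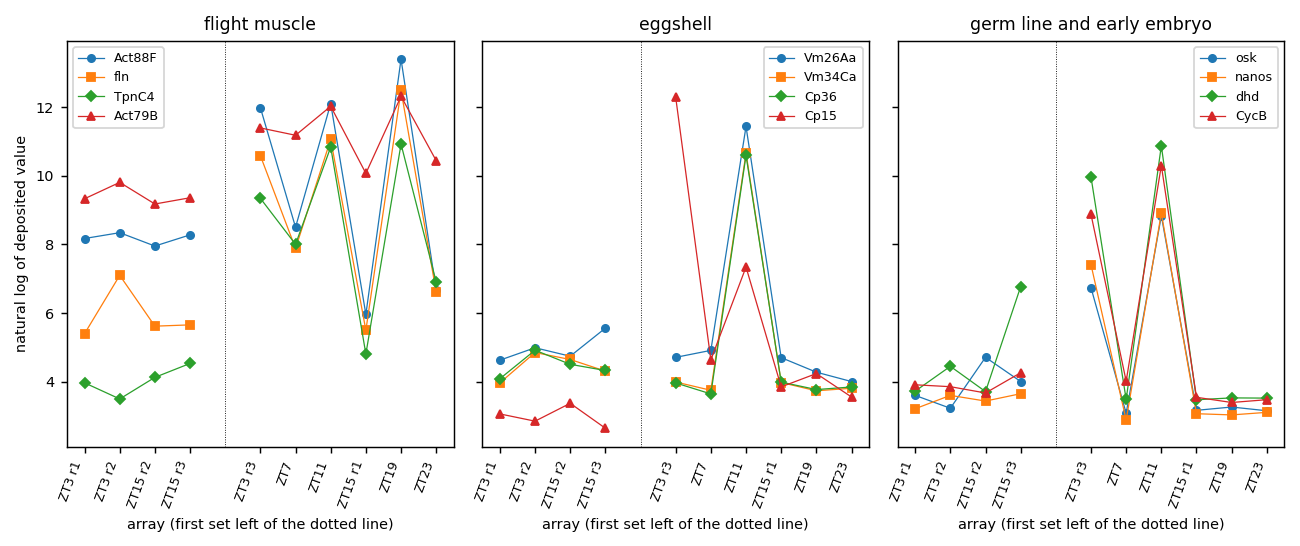
Level (natural log of the deposited value, vertical axis) of 4 flight muscle, 4 eggshell and 4 germ line genes on each array, with the first set left of the dotted line and the second set right of it, lines joining the points of 1 gene. Act88F ranges between 5.96 and 13.40 within the second set, and Vm26Aa and Cp36 are high on ZT11 alone.

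Leaving out ZT3 replicate 3, ZT11 and ZT19, the arrays with the most flight muscle or egg signal, the other 3 arrays of the second set against all 4 of the first gave 1163 probe sets higher and 2086 lower. Within the first set, ZT15 replicate 2 stood apart for testis genes. The median of 24 testis genes was 6.12 on that array, against 3.78 to 4.13 on the other arrays of the set. The sperm leucyl aminopeptidase S-Lap7 read 2.71, 3.09, 7.60 and 2.94 on the first set, against 11.99, 12.62 and 13.20 on the second set.

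Core clock genes were set against this background, since both sets hold ZT3 and ZT15. The period gene per read 7.09 and 7.04 (ZT3) and 10.03 and 10.08 (ZT15) for the arrays of the first set, against 7.05 (ZT3) and 10.21 (ZT15) for those of the second set. Likewise tim, the partner of per, had a difference between the sets of -0.08 and vri, a transcription factor of the clock, of -0.05. None of the 8 core clock genes met a call, and the others had differences of 0.17 for Clk, 0.33 for cyc, -0.62 for Pdp1, 0.39 for cry and -0.63 for cwo. A time by set interaction, fitted with limma to the 6 arrays of ZT3 and ZT15, asked whether the change with time differed between the sets. No probe set passed an adjusted p of 0.05 (0% of 12991), and the smallest adjusted p was 0.277. At an unadjusted p of 0.05, 996 probe sets passed, and with a variance trend and robust weights 6 passed the adjusted threshold. The fit has 1 array of the second set per time, so its spread rests on the first set. The smallest p was that of Act88F, with an estimate of 5.88 ± 0.29 (SE) and an adjusted p of 0.277, followed by Fad2 and the chorion gene Cp15.

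The place of the genes along the chromosomes was not used to choose the sets, but the calls counted here came from the levels that were. The shares are thus a description and lend no support of their own. Among 10118 measured genes placed in the Release 6 annotation, 1808 lower genes had a next measured gene on their chromosome, and 611 of these next genes (33.8%) were also lower, against 17.9% of all genes. For higher genes it was 150 of 1005, or 14.9%, against 9.94% of all. There were 35 runs of 5 or more lower genes in a row, and the longest held 10, starting with Pif2 and ending with CG31286. The longest run of higher genes held 5, and it joined the hemocyte genes He, NimC1 and NimC2 with Cyp28a5 and rk. By chromosome arm, lower genes made up 21.5% of 1911 genes on 2L, 15.3% of 1593 on X and 1.54% of 65 on chromosome 4. Higher genes made up 7.78% on X and between 9.26% and 12.3% on the other arms. Neighbouring genes can share probes, which was not examined.

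Control probe sets moved with the sets as well. All 17 bacterial and phage spike-in probe sets were higher on the first set with no overlap over all 10 arrays, by a median of 1.68 for bioB, 1.56 for bioC, 0.94 for bioD and 0.52 for cre. The gap between the 3′ and 5′ probe sets of Act5C, a common gauge of RNA integrity, was 1.51 to 1.92 on the first set, against 0.689, 0.937 and 1.28 on the second set. That of GAPDH was 0.561 to 0.742 on the first set, against 0.183, 0.522 and 0.603 on the second set, and that of eIF4A was 1.39 to 1.89 on the first set, against 1.08, 1.33 and 1.61 on the second set. The ranges overlapped for GAPDH and eIF4A but not for Act5C. The 18S ribosomal RNA probe sets were higher on the first set with no overlap, by 3.69 for the 3′ one and 2.78 for the middle one. Over all non-control probe sets the array medians were 6.04 to 6.14 on the first set and 6.67 to 6.75 on the second set, while the upper quartiles were 9.10 to 9.15 on the first set and 9.03 to 9.09 on the second set. The part of these measures in the gene differences was not tested.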

How the data were processed

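The authors deposited 1 intensity per probe set and array, and per the submitters' processing notes these come from GCRMA, with no version or setting given in the sources used here. Deposited intensities ran between 5.28264 and 8527860, above the range of a 16-bit scanner, so the natural log of each was taken for a GCRMA log2 value, a reading drawn from the values. Of 18769 probe sets other than 183 controls, 13646 had 1 gene symbol, 402 several and 4721 none here, with symbols updated by gene ID from RefSeq (Release 6 plus ISO1 MT). Of the listed symbols, 86 had no single match and were not analysed here.

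The sets, members and gene lists were chosen with earlier results of these data known, and 6 lists and the symbol families were added after values were seen. Sets were compared by differences and overlap alone, with no test. For the interaction, lmFit and eBayes of limma 3.58.1 (R 4.3.3) were run and p-values adjusted after Benjamini-Hochberg. They reflect only how far these samples spread, and that spread may be technical. On simulated data for that interaction over 12991 probe sets, it recovered 38% of 50 probe sets changed by 2 and 86% of 50 changed by 8, with 5 false calls in all. The number of arrays limits the precision.

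Named genes were, in each direction, the 15 with the largest difference among those called over all 10 arrays outside the male reproductive lists; up to 4 called genes per list, or else the member nearest the list median; and all measured genes of the trunk Hox, yolk, flight muscle and core clock lists. Genes outside this rule (such as Amt, ss, Vha36-1, Fad2 and BBS9) were chosen after their values were seen. Alternatives covered the scale, pseudocount, normalization, filter, left-out arrays, all 10 arrays, a replicate block, the size of the difference, the probe set of a gene and the variance prior.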

Additional observations from a re-analysis of the deposited data

Results flagged for a closer look

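Within each set, 1 array stood apart from the others of its set by a wide gap for 40 of the 440 groups of values looked at (9.09%). Chance flags about 1 in 20 groups. No excess can be read from this share, since list medians and single genes of the same lists were both counted. The arrays of the second set also differ in time.

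On the first set, ZT15 replicate 2 held the highest testis median at 6.12, ocn at 6.31 and S-Lap7 at 7.60, and the lowest general muscle median at 11.39. ZT15 replicate 3 held the highest anterior patterning median at 8.12, RpS5b at 7.05, Ugt37A3 at 7.82 and Obp51a at 4.32, and the lowest Klp67A at 4.17. ZT3 replicate 2 held the highest heat shock median at 12.03, cytoplasmic ribosomal protein median at 14.77, PPO2 at 12.36 and fln at 7.10, and the lowest Lkr at 6.66. ZT3 replicate 1 held the highest odorant-binding protein median at 11.25 and Spn28F at 3.13. It also held the lowest peptidoglycan recognition protein median at 9.18, NaPi-T at 3.43 and Vha36-2 at 3.14.

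On the second set, ZT23 held the lowest midgut median at 8.72, Malpighian tubule median at 7.86, proteasome median at 11.04 and tetraspanin median at 8.67. It also held the lowest PPO1 at 8.78 and Prosalpha7 at 11.31, and the highest para at 9.15, Scr at 6.46, GstD11 at 5.64, Ugt36E1 at 7.43 and nAChRalpha5 at 9.59. ZT11 held the highest eggshell median at 9.01, fat body median at 12.46, Obp84a at 3.92, HisRS at 9.28 and a nucleoporin gene at 8.33. ZT19 held the highest UDP-glycosyltransferase median at 7.55 and the lowest Acsx2 at 4.23. ZT3 replicate 3 held the lowest brp at 7.44 and Yp1 at 15.50, and ZT15 replicate 1 the highest hemocyte median at 9.58.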

How the results depend on the processing

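No list median over 1 in size and no called gene that was followed changed its sign under any alternative run. Of 866 values of list medians under alternatives 779 stayed within 1 SD of the arrays and 87 moved, and of 2846 values of genes 2530 stayed and 316 moved. Probe sets higher in the first set numbered 2427 with log2(value + 1), 2173 after quantile normalization and 230 with a difference over 2, against 1219; those lower numbered 1384 with a filter at a mean of 6, against 2125. Lists with a median over 1 in size numbered 11 with log2(value + 1) and 10 with the 6 added lists, against 6 of 46. The larger numbers with log2(value + 1) follow from its scale, and the cause of the others was not tested. The time by set interaction passed 6 probe sets with a variance trend and robust weights, and 0 in all other settings run. Left-out arrays gave 1125 to 1545 higher, 2125 to 2172 lower, 6 to 8 lists and 0 interactions. The median difference of all probe sets, 0.174, became 0.282 after quantile normalization and 0.0636 after centring on photoreceptor and neuron genes. List medians under 0.5 in size changed sign for 4 lists after quantile normalization, namely serpins (0.09), core clock (0.0084), axonemal dyneins (0.10) and peptidoglycan recognition proteins (-0.013). Centring on photoreceptor and neuron genes turned 7 medians that lay near 0: peptidoglycan recognition, aminoacyl-tRNA synthetase, cytoplasmic ribosomal protein, fat body, general muscle, oxidative phosphorylation and translation initiation, now between -0.073 and -0.0023.

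Replicate numbers share only a number here. Deviations from the time means correlated at -0.893, 0.804 and -0.903 for numbers 1, 2 and 3, which follows how the sets cross them. The replicate block, judged by size alone, gave 1388 probe sets higher, 2218 lower and 9 lists. The interaction could not be fitted with that block, without ZT3 replicate 3 or without ZT15 replicate 1, and the eggshell list had no value with the filter at 6.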

Other observations

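Neprilysin-like peptidases, enzymes that cut short peptides, had 7 of 17 measured genes higher and none lower in the first set, with a median difference of 0.81; the family was picked after its values were seen. Of 4 mitochondrial import genes that were lower among 8 named Tim, 3 were of the Tim17 kind (Tim17b2, Tim17a1 and Tim17b1). Osi8, of the Osiris family of secreted or membrane proteins, read 7.40, 7.07, 7.08 and 6.84 on the first set, against 2.59, 3.64 and 4.25 on the second set.

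Values varied within the first set for genes of stress and digestion. TotC, a stress-induced humoral gene, read 12.93, 10.57, 10.06 and 8.97 on the first set, against 10.10, 10.39 and 11.15 on the second set. The digestive protease Jon99Fi read 9.30, 11.24, 13.15 and 12.26 on the first set, against 9.70, 11.12 and 11.61 on the second set. ZT15 replicate 2 was the highest array of its set by over 2 for 28 genes, followed by ZT11 with 10 in its set, and no other array held more than 4 such genes.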
